A study of Homo sapiens with 24 samples.

Results

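Tight junction genes were followed across 24 libraries of 2 bladder cancer cell lines in which FOXA1, ZBED2 or both had been knocked down. They were taken by symbol as 4 claudins (CLDN1, CLDN4, CLDN7 and CLDN12), 2 other membrane proteins (OCLN and F11R) and 3 proteins of the cytoplasmic plaque (TJP1, TJP3 and CGN), which is 9 of the 58721 genes in the count table. RT112 is a luminal papillary (LumP) line and SCaBER a basal/squamous (Ba/Sq) line, both of human bladder cancer. Per the methods of the study RT112 was grown in RPMI and SCaBER in DMEM. Cells of each line received by lipid transfection a non-targeting siRNA (siControl), an siRNA to ZBED2 (siZBED2-1 or siZBED2-2), an siRNA to FOXA1 (siFOXA1), or siFOXA1 with siZBED2-1 or with siZBED2-2. All groups shared the transfection reagent, the sources name no further agent, and the knock-down was short-term. The study describes RT112 as FGFR3-altered. Each of the 12 groups held 2 libraries, whose replicate number the labels tie to an experiment batch, so p-values measured the spread between batches of 1 line and not between tumours.

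Tight junctions seal the space between neighbouring epithelial cells near the apical side and set which ions and solutes pass between them. Claudins form the strands of the seal and differ in whether they tighten it or let ions through, occludin (OCLN) and the junctional adhesion molecule encoded by F11R lie in the same membrane contacts, and the scaffold proteins ZO-1 (TJP1), ZO-3 (TJP3) and cingulin (CGN) join the strands to actin. In the bladder this seal is part of the barrier that keeps urine out of the tissue. FOXA1 is a pioneer factor of the forkhead family with a role in luminal identity, and ZBED2 is a DNA-binding regulator with a BED-type zinc finger.

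The libraries came from a 3′ RNA-seq kit, in which reads start near the poly-A end, so levels are given as CPM, that is read counts scaled to library size with edgeR's TMM factors, and were compared between samples of a gene, not between genes. Total counts ran from 4425404 to 6119210 per library, and 3 counts, the floor used here, stood at 0.490 to 0.678 CPM. FOXA1 was at 31.2 to 56.8 CPM in the 6 RT112 libraries without siFOXA1 and at 4.03 to 15.5 CPM in the 6 with it. In SCaBER it had 20 and 28 counts with siControl, 1 to 25 with the ZBED2 siRNAs alone and 0 to 6 with siFOXA1. ZBED2 was at 22.2 and 16.9 CPM in RT112 siControl and 0 to 7.32 CPM under its own siRNAs. In SCaBER, ZBED2 was at 19.0 and 19.1 CPM in siControl, and the library labelled siZBED2-2 replicate 2 still held 16.0 CPM. The ZBED2 level was also low in RT112 with siFOXA1 alone, at 5.42 and 1.50 CPM, while in SCaBER with siFOXA1 alone it was 20.4 and 19.0 CPM. Epithelial markers (EPCAM, CDH1, KRT8, KRT18 and KRT19) summed to 4465 to 6101 CPM in RT112 and to 1440 to 1963 CPM in SCaBER, where KRT19 had 6 counts in each siControl library. The 7 luminal markers summed to 409 to 1093 CPM in RT112 and 26.5 to 49.4 CPM in SCaBER. The 7 basal squamous markers summed to 191 to 445 and 2073 to 3594 CPM, and both sums were in the direction of the subtype names. Single markers did not all follow. TP63 was at 15.6 and 34.8 CPM in RT112 siControl and at 19.0 and 18.7 in SCaBER. KRT20 and UPK3A had 0 counts in siControl of both lines. Of 14 markers of stromal, endothelial and immune cells, 4 were at 0 in all 12 libraries of each line, and their summed level was 110.5 to 192 CPM in RT112 and 19.5 to 47.1 CPM in SCaBER, most of it LUM (112 and 157 CPM in RT112 siControl). In RT112 the share of counts from mitochondrial transcripts was 18.57 to 22.73% with siFOXA1 and 8.215 to 17.78% without, and in SCaBER it was 9.295 to 12.93% with and 9.55 to 11.98% without. The 2 SCaBER libraries with siFOXA1 alone had the highest shares of that line, 12.93 and 12.52% against 9.735 and 10.74% with siControl.

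The DNA just before the transcription start is shown for the 3 claudins called for an siRNA against siControl in both lines, and what a motif search found there is given with it. RefSeq windows of 250 bases (GRCh38.p14) were matched by symbol for 8 of the 9 genes, F11R being the one without an entry. Capitals mark matches to AP-1 (TGANTCA, a palindrome). Each window is printed 5′ to 3′ on the strand of its gene.
CLDN1: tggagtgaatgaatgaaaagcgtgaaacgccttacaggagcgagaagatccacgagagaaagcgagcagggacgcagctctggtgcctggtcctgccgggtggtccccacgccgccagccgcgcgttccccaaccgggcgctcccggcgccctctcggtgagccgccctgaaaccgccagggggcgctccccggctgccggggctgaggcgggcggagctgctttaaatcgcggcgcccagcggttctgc
CLDN4: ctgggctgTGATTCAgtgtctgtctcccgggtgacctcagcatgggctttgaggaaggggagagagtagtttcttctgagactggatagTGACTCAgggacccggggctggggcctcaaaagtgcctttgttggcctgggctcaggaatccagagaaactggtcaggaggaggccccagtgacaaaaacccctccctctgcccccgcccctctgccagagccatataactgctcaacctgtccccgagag
CLDN7: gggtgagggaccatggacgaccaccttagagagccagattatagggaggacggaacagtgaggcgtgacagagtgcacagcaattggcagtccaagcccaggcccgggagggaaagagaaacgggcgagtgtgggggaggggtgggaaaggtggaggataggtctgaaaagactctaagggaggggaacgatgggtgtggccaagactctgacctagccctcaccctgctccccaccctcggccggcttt
The CLDN1 window, chr3:190322447-190322696 on the minus strand, held none of the 4 motifs searched and had a GC content of 68.8%. The CLDN4 window, chr7:73830746-73830995 on the plus strand, held the AP-1 letters at 242 and at 161 bases before the start. The CLDN7 window, chr17:7263214-7263463 on the minus strand, held none, whereas a window at its other annotated start held 4 matches to the Snail E-box (CACCTG or CAGGTG). Snail E-box letters also occurred in both OCLN windows and in a window each of TJP1 and TJP3. The single match to the grainyhead-like motif (AACCNGTT or AACNGGTT), a letter pattern bound by epithelial factors of the GRHL family, lay 27 bases before a CGN start that RefSeq places inside the span of the gene, and is in capitals in the 30 bases around it, chr1:151511349-151511378 on the plus strand.
CGN: cgcagcggagtAACAGGTTggtgggaggga
No window of the members held the forkhead letters (TGTTTAC or GTAAACA), the pattern that FOXA1 belongs to. Both strands were searched for every motif. Over the 35116 windows of that length in the RefSeq table, 2.98% held the forkhead letters, 1.49% the grainyhead-like, 6.57% the AP-1 and 17.5% the Snail E-box letters, so a match or its absence describes these letters only.

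The first question was how the junction genes respond to siFOXA1 in a luminal and in a basal line. CLDN4 and CLDN7, claudins of tight epithelia that are often made together, and F11R, a homophilic adhesion molecule of the junction, were higher with siFOXA1 than with siControl in both lines. In RT112 these were the 3 members called of 9, all higher, where 11.3% of the 13264 genes tested were called higher and 23.3% in either direction. In SCaBER 5 were called higher and 1 lower, where 8.71% of the 13129 genes tested were called higher and 17.8% in either direction. Called here and throughout means a Benjamini-Hochberg adjusted p under 0.05 over all genes tested, by edgeR's quasi-likelihood test. The median log2 fold change of the members was 0.67 in RT112 and 0.56 in SCaBER, beside -0.01 and -0.02 over all genes tested. The members were chosen with earlier results of these data known, so these shares and medians describe them and are no test of the class.

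CLDN4 lies on chr7:73830996-73832690 and overlaps no other protein-coding gene in RefSeq. Its level in RT112 was 475 and 422 CPM with siControl (replicates 1 and 2), 565 and 397 with siZBED2-1, and 537 and 449 with siZBED2-2. With siFOXA1 it was 1081 and 1061 CPM, with siFOXA1 and siZBED2-1 1029 and 1037, and with siFOXA1 and siZBED2-2 801 and 805. All 6 libraries with siFOXA1 stood above all 6 without. The log2 fold change of siFOXA1 on siControl was 1.26 (SE 0.14, adjusted p = 4.90e-07, edgeR), or 2.39-fold. In SCaBER the CPM were lower throughout, at 176 and 211 with siControl, 140 and 184 with siZBED2-1, and 218 and 213 with siZBED2-2. They were 286 and 283 with siFOXA1, 256 and 302 with siZBED2-1 added, and 276 and 301 with siZBED2-2 added. Again no library with siFOXA1 fell among those without. The SCaBER change was 0.56 (SE 0.14, adjusted p = 0.00441, edgeR), and without siControl replicate 1 it was 0.43 with an adjusted p of 0.101.

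CLDN7 (chr17:7259903-7263213, with 38 bases shared with ELP5) followed the same division at a smaller scale. In RT112 it was at 65.8 and 63.6 CPM with siControl, 65.1 and 54.5 with siZBED2-1, and 55.7 and 70.4 with siZBED2-2. With siFOXA1 it was at 104 and 116 CPM, and with siZBED2-1 or siZBED2-2 added at 91.0 and 132 or 141 and 87.1. The libraries with siFOXA1 did not overlap those without, although the double knock-down replicates lay far apart. In SCaBER it was at 63.3 and 63.8 CPM with siControl, 74.0 and 67.4 with siZBED2-1, and 77.2 and 69.0 with siZBED2-2. With siFOXA1 it was at 97.1 and 91.4 CPM, and with siZBED2-1 or siZBED2-2 added at 87.7 and 111 or 95.8 and 101. The range with siFOXA1, 87.7 to 111 CPM, lay above the range without. The log2 fold change on siControl was 0.76 (SE 0.22, adjusted p = 0.0124, edgeR) in RT112 and 0.57 (SE 0.17, adjusted p = 0.0172) in SCaBER. The RT112 call was lost without siControl replicate 2 (0.74, adjusted p = 0.0664) or siFOXA1 replicate 2 (0.69, 0.0691), and the SCaBER call without either siControl library or siFOXA1 replicate 1 (0.53 to 0.58, adjusted p 0.0850 to 0.0912).

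F11R (chr1:160995211-161021152) was at 150 and 162 CPM in RT112 with siControl, 142 and 174 with siZBED2-1, and 137 and 194 with siZBED2-2. With siFOXA1 it was at 234 and 264 CPM, with siZBED2-1 added at 186 and 234, and with siZBED2-2 added at 206 and 255. Of these 6 libraries 5 stood above all 6 without siFOXA1. In SCaBER it was at 167 and 186 CPM with siControl, 177 and 216 with siZBED2-1, and 172 and 183 with siZBED2-2. It stood at 325 and 377 CPM with siFOXA1, 286 and 306 with siZBED2-1 added, and 265 and 246 with siZBED2-2 added. The 2 sets of SCaBER libraries did not overlap. The log2 fold change on siControl was 0.67 (SE 0.17, adjusted p = 0.00537, edgeR) in RT112 and 0.99 (SE 0.13, adjusted p = 1.12e-06) in SCaBER. Over all genes tested, 5.13% in RT112 and 3.42% in SCaBER had their 6 libraries with siFOXA1 above their 6 without, as CLDN4 and CLDN7 did in both lines and F11R in SCaBER.

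**Figure D1:**
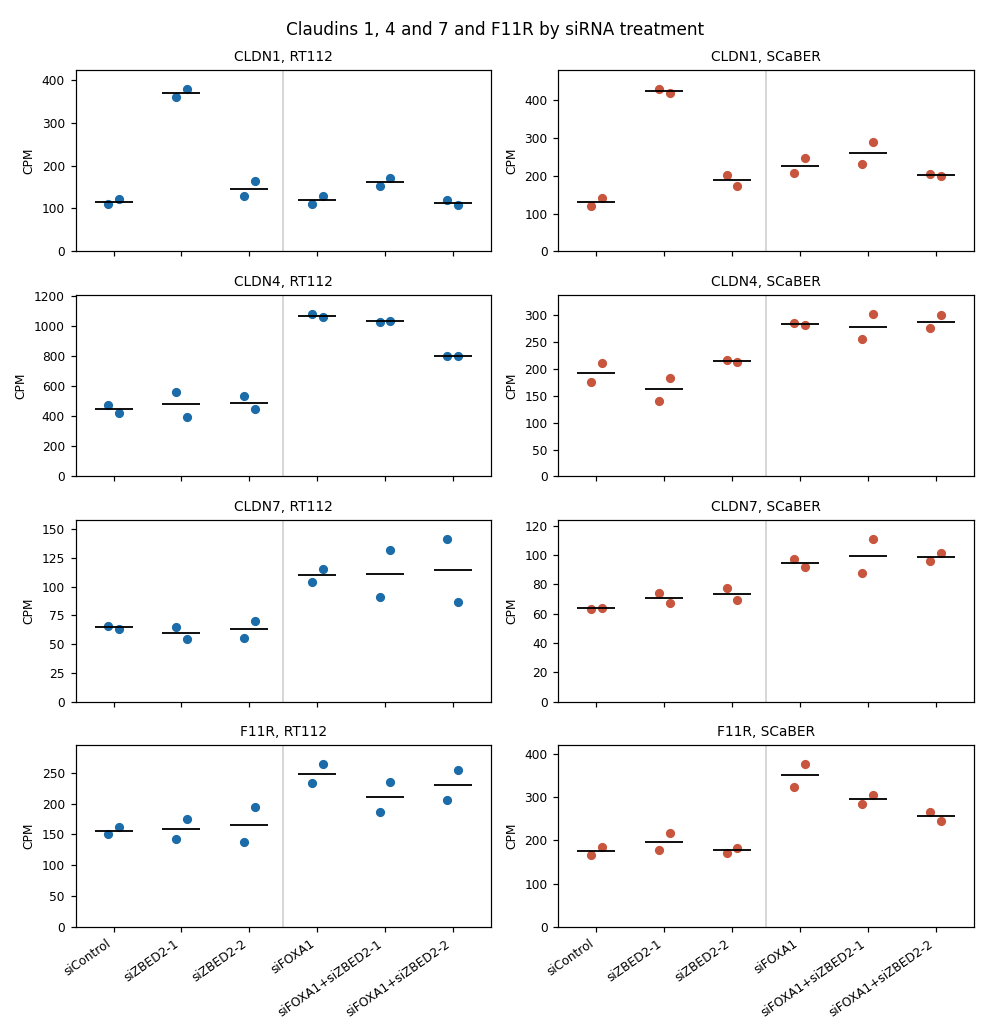
Level of CLDN1, CLDN4, CLDN7 and F11R (CPM, y axis from 0) in RT112 (left) and SCaBER (right) by siRNA treatment. Points are the 2 libraries of a group, horizontal lines their mean, and the grey line separates groups without (left of it) and with siFOXA1, where CLDN4 and CLDN7 lay higher in both lines and CLDN1 peaked with siZBED2-1 alone.

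The labels name 1 FOXA1 siRNA throughout, so whether a change came through FOXA1 was not tested. A second estimate with the same siRNA shares no library with the first: the double knock-downs against the ZBED2 siRNAs alone. Here CLDN4, CLDN7 and F11R were again higher in both lines. The log2 fold changes in RT112 were 0.90 for CLDN4 (SE 0.10, adjusted p = 3.25e-07, edgeR), 0.88 for CLDN7 (SE 0.15, adjusted p = 1.96e-04) and 0.45 for F11R (SE 0.12, adjusted p = 0.0101). In SCaBER they were 0.60 for CLDN4 (SE 0.10, adjusted p = 6.06e-05), 0.46 for CLDN7 (SE 0.12, adjusted p = 0.0106) and 0.56 for F11R (SE 0.09, adjusted p = 8.94e-05). CLDN1 was the only other member called, and it was lower in both lines over the mean of both ZBED2 siRNAs, as given with its siZBED2 values. Counting all directions, 4 of the 9 were called in each line, where 20.1% of genes in RT112 (9.88% higher) and 10.1% in SCaBER (5.24% higher) were. The RT112 call of F11R was lost with library size alone as the scaling (0.35, adjusted p = 0.0674) and without any of 4 single libraries (0.33 to 0.38, adjusted p 0.0531 to 0.0658), which were replicate 1 of each ZBED2 siRNA and replicate 2 of each double knock-down. In SCaBER the CLDN7 call was lost without siZBED2-1 replicate 2, siZBED2-2 replicate 2 or the double knock-down with siZBED2-1 replicate 2 (0.36 to 0.42, adjusted p 0.0613 to 0.109).

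The mitochondrial share moved with these results, in RT112 over all groups with siFOXA1 and in SCaBER with siFOXA1 alone. With mitochondrial transcripts left out, an alternative chosen after the data were seen, every member called in the siFOXA1 comparisons of either line stayed called. That alternative removes only the transcripts, and whether the member changes are linked to the mitochondrial share was not tested. On the TPM scale the median of all genes under siFOXA1 in RT112 was -0.26 (log2), a shift whose cause was not tested. There CLDN7 stood at 0.45 and F11R at 0.36, neither called, while CLDN4 stayed called. In SCaBER, where that median was -0.13, CLDN4 (0.42, adjusted p = 0.0938, limma) and CLDN7 (0.43, adjusted p = 0.0565) were not called on the TPM scale.

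**Figure D2:**
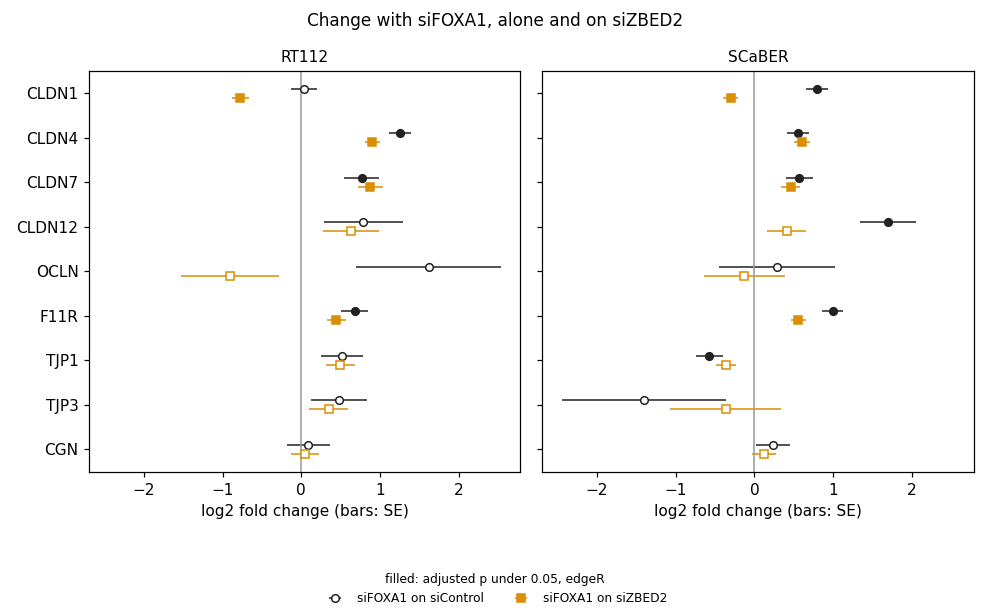
Log2 fold change (x axis, bars SE) of the 9 members with siFOXA1 on siControl (circles) and on siZBED2 (squares) in RT112 (left) and SCaBER (right). Filled symbols had an adjusted p under 0.05 (edgeR), and CLDN4, CLDN7 and F11R are filled and right of 0 in all 4 comparisons.

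CLDN1, which seals epithelia and whose loss makes skin leaky, gave the largest changes with a ZBED2 siRNA on siControl among the members called. It lies on chr3:190305707-190322446, inside the span of CLDN16, whose own count did not exceed 36 in any library against 499 to 2289 counts for CLDN1. In RT112 it was at 109 and 123 CPM with siControl, 359 and 378 with siZBED2-1, and, with siZBED2-2, 129 and 163. In SCaBER it was at 121 and 141 CPM with siControl, 428 and 419 with siZBED2-1, and 203 and 172 with siZBED2-2. The 2 siZBED2-1 libraries stood far above all others of their line. The log2 fold change of siZBED2-1 on siControl was 1.66 (SE 0.16, adjusted p = 1.31e-07, edgeR) in RT112 and 1.69 (SE 0.14, adjusted p = 4.88e-10) in SCaBER, 3.17-fold and 3.23-fold. For siZBED2-2 it was 0.33 in RT112 (SE 0.16, adjusted p = 0.862). The SCaBER value was 0.52 (SE 0.14, adjusted p = 0.102). With the replicate block that pairs libraries of an experiment batch the SCaBER siZBED2-2 value was 0.52 with an adjusted p of 0.0241. The ZBED2 siRNAs themselves differed for CLDN1, by 1.34 (SE 0.15, adjusted p = 3.56e-06) in RT112 and 1.18 (SE 0.14, adjusted p = 7.83e-07) in SCaBER, so the mean over both, 1.00 and 1.11 (adjusted p = 1.29e-04 and 1.57e-06), joins unlike responses. Whether the siZBED2-1 response came through ZBED2 was not tested, and residual ZBED2 was lower with siZBED2-1 (0 and 2.38 CPM in RT112, 2.39 and 7.33 in SCaBER) than with siZBED2-2 (7.32 and 6.24, 8.84 and 16.0).

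With siFOXA1 present, CLDN1 rose less with siZBED2-1. In RT112 it was at 109 and 129 CPM with siFOXA1, 153 and 170 with siZBED2-1 added, and 119.5 and 107 with siZBED2-2 added. In SCaBER it was at 207 and 247 CPM with siFOXA1, 232 and 288 with siZBED2-1 added, and 204 and 199 with siZBED2-2 added. With siFOXA1 alone ZBED2 itself was already at 5.42 and 1.50 CPM in RT112, and at 20.4 and 19.0 CPM in SCaBER. The effect of siZBED2-1 on top of siFOXA1 was 0.44 (SE 0.16, adjusted p = 0.159, edgeR) in RT112 and 0.20 (SE 0.14, adjusted p = 0.584) in SCaBER. The difference between that and its effect on siControl, tested as an interaction, was -1.22 (SE 0.22, adjusted p = 0.00477) in RT112 and -1.50 (SE 0.20, adjusted p = 1.62e-05) in SCaBER. CLDN1 was the one member called there, against a background of 1.14% of genes in RT112 and 1.48% in SCaBER. Over both ZBED2 siRNAs the interaction was -1.09 (SE 0.17, adjusted p = 2.40e-04) in SCaBER, where 2.29% of genes were called. In RT112 it was -0.81 (SE 0.19, adjusted p = 0.0502), or an adjusted p of 0.0130 with the replicate block. In RT112 edgeR called 0 of 9 members there (0.611% of all genes), with 3 at an unadjusted p under 0.05, and DESeq2 called 1.

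In SCaBER the siFOXA1 change of CLDN1 was positive on siControl and negative on siZBED2 as the mean of both siRNAs. That mean joined unlike backgrounds. In SCaBER the group mean fell from 424 to 260 CPM on siZBED2-1, and on siZBED2-2 it was 188 without and 201 with siFOXA1. In RT112 it fell from 368 to 162 CPM on siZBED2-1 and from 146 to 113 on siZBED2-2. With siFOXA1 on siZBED2-2 edgeR called 0 members lower in RT112 (4.34% of all genes) and in SCaBER (1.38%). On siControl the change was 0.79 (SE 0.14, adjusted p = 8.22e-05, edgeR) in SCaBER and 0.03 (SE 0.16, adjusted p = 0.915) in RT112. On siZBED2 it was -0.30 (SE 0.10, adjusted p = 0.0432) in SCaBER and -0.78 (SE 0.11, adjusted p = 1.44e-05) in RT112. The SCaBER decrease lost its call without any of 6 single libraries (adjusted p 0.0752 to 0.238), which were both siZBED2-1 libraries, siZBED2-2 replicate 1, siFOXA1 with siZBED2-1 replicate 1 and both of siFOXA1 with siZBED2-2.

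In all, siZBED2-1 on siControl called 3 members in RT112 (8.8% of all genes) and 1 in SCaBER (4.65%), and the mean of both siRNAs called 2 (2.37%) and 1 (1.82%). With siZBED2-2 edgeR called 0 members in either line (0.166% and 0.625% of all genes), with 2 in RT112 and 1 in SCaBER at an unadjusted p under 0.05, and DESeq2 called 0 and 1. CLDN4 and CLDN7 were not among the genes called for a ZBED2 siRNA on siControl. For the mean of both siRNAs the 95% interval ran from -0.12 to 0.36 for CLDN4 and -0.45 to 0.30 for CLDN7 in RT112, and from -0.29 to 0.19 and -0.12 to 0.47 in SCaBER.

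**Figure D3:**
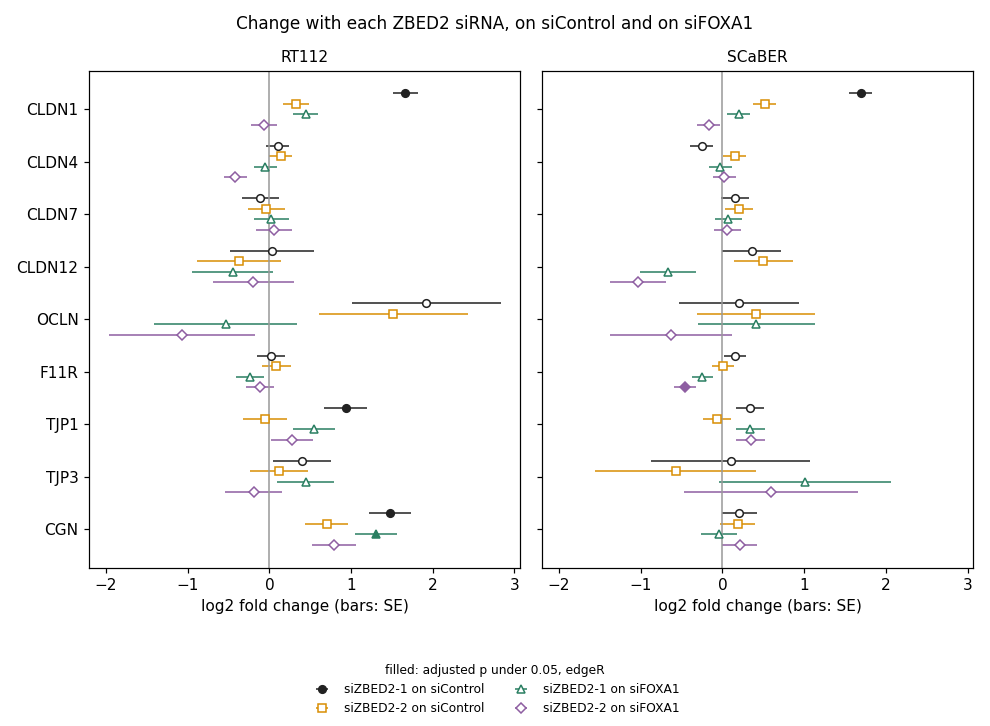
Log2 fold change (x axis, bars SE) of the 9 members with siZBED2-1 or siZBED2-2, each on siControl and on siFOXA1, in RT112 (left) and SCaBER (right). Filled symbols had an adjusted p under 0.05 (edgeR): CLDN1 with siZBED2-1 on siControl in both lines, TJP1 and CGN in RT112, and F11R with siZBED2-2 on siFOXA1 in SCaBER.

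Cingulin (CGN, chr1:151510170-151538692), a plaque protein that binds ZO-1 and actomyosin, was higher with siZBED2-1 in RT112 whether or not siFOXA1 was present. It was at 19.1 and 20.9 CPM with siControl, 48.5 and 62.9 with siZBED2-1, and 33.9 and 31.2 with siZBED2-2. It was at 25.1 and 17.4 CPM with siFOXA1, 53.0 and 52.1 with siZBED2-1 added, and 36.8 and 36.8 with siZBED2-2 added. Each ZBED2 siRNA library thus stood above the libraries of its background. The log2 fold change of siZBED2-1 was 1.48 (SE 0.26, adjusted p = 5.06e-04, edgeR) on siControl and 1.30 (SE 0.26, adjusted p = 0.00628) on siFOXA1. That of siZBED2-2 was 0.70 (SE 0.27, adjusted p = 0.672) and 0.79 (SE 0.27, adjusted p = 0.163). The ZBED2 siRNAs against each other gave 0.77 (SE 0.26, adjusted p = 0.0642, and 0.0476 with the replicate block). Over both siRNAs CGN was higher by 1.09 on siControl (SE 0.23, adjusted p = 0.0112) and by 1.05 on siFOXA1 (SE 0.23, adjusted p = 0.0189). The first call was lost without either RT112 siControl library (1.03 and 1.15, adjusted p 0.154 and 0.135) and the second without siFOXA1 replicate 2 (0.81, adjusted p = 0.382, and 1.06 with 0.109 for siZBED2-1 alone). In SCaBER CGN lay between 42.8 and 71.7 CPM in all 12 libraries, with a siZBED2 change of 0.19 on siControl (95% interval -0.17 to 0.56). The difference between lines in that response was -0.89 (SE 0.30, adjusted p = 0.453), so it was not shown to differ.

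On siFOXA1, CGN was the one member called in RT112 over both ZBED2 siRNAs (1.96% of all genes called) and with siZBED2-1 (2.55%). With siZBED2-2 on siFOXA1 edgeR called 0 there (1.25% of all genes), with 2 members at an unadjusted p under 0.05, and DESeq2 called CLDN4 (-0.43, adjusted p = 0.0448). In SCaBER 0 were called over both siRNAs (3.84%) and 0 with siZBED2-1 (2.73%), with 3 and 0 members at an unadjusted p under 0.05. With siZBED2-2 F11R was lower by -0.46 (SE 0.13, adjusted p = 0.0467, edgeR), where 3.66% of genes were called. That call was lost with library size alone (-0.42, adjusted p = 0.0790) and without siFOXA1 replicate 2 or any of the 4 double knock-down libraries (-0.50 to -0.34, adjusted p 0.0554 to 0.425). Over both siRNAs F11R stood at -0.35 (SE 0.11, adjusted p = 0.0803, or 0.0311 with the replicate block and 0.0317 by DESeq2).

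ZO-1 (TJP1, chr15:29699367-29969049), the scaffold that anchors claudins to actin, moved in unlike ways in the lines. In RT112 it was at 28.1 and 22.9 CPM with siControl, 53.6 and 43.5 with siZBED2-1, and 29.1 and 19.9 with siZBED2-2. With siFOXA1 it was at 39.96 and 32.8 CPM, with siZBED2-1 added at 56.6 and 50.1, and with siZBED2-2 added at 44.2 and 44.2. In SCaBER it was at 121 and 96.2 CPM with siControl, 140 and 134 with siZBED2-1, and 109 and 98.0 with siZBED2-2. With siFOXA1 it was at 76.9 and 69.3 CPM, with siZBED2-1 added at 107 and 78.1, and with siZBED2-2 added at 103 and 83.0. The lowest SCaBER libraries were the 2 with siFOXA1 alone, and the lowest RT112 library was one with siZBED2-2. The siFOXA1 change on siControl was -0.57 in SCaBER (SE 0.18, adjusted p = 0.0198, edgeR) and 0.52 in RT112 (SE 0.26, adjusted p = 0.169). The difference between lines was -1.09 (SE 0.30, adjusted p = 0.0435). On siZBED2 the values were -0.36 (SE 0.12, adjusted p = 0.0558) and 0.49 (SE 0.18, adjusted p = 0.0567), with adjusted p of 0.0156 and 0.0309 with the replicate block, and their difference was -0.86 (SE 0.21, adjusted p = 0.0173). The SCaBER decrease on siControl lost its call without siControl replicate 1 (-0.40, adjusted p = 0.260) or siFOXA1 replicate 2 (-0.49, adjusted p = 0.138). In RT112 TJP1 was higher with siZBED2-1 than with siControl (0.93, SE 0.26, adjusted p = 0.0232) and than with siZBED2-2 (0.99, SE 0.26, adjusted p = 0.0178). The first of these was lost without either siControl or either siZBED2-1 library (0.77 to 1.08, adjusted p 0.0514 to 0.258), and the second without siZBED2-1 replicate 1 or siZBED2-2 replicate 2 (0.83 and 0.72, adjusted p 0.171 and 0.250). Between the ZBED2 siRNAs 2 members were called in RT112 (7.77% of all genes) and 1, CLDN1, in SCaBER (4.01%).

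CLDN12 (chr7:90403461-90415954), a claudin linked to calcium passage in the gut, had 26 to 82 counts in RT112 and 44 to 182 in SCaBER. In SCaBER it was at 8.29 and 14.1 CPM with siControl and 31.3 and 41.2 with siFOXA1, the 2 highest libraries of the line. The change was 1.69 (SE 0.36, adjusted p = 7.20e-04, edgeR), 3.23-fold. In the double knock-downs it was at 25.6 and 19.9 CPM with siZBED2-1 and 16.3 and 19.0 with siZBED2-2, and 10.3 to 21.3 CPM with the ZBED2 siRNAs alone. The siFOXA1 change on siZBED2 was 0.41 (SE 0.25, adjusted p = 0.344), and the interaction was -1.28 (SE 0.43, adjusted p = 0.128). In RT112 the siFOXA1 change was 0.78 (SE 0.50, adjusted p = 0.287) on siControl.

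OCLN in both lines and TJP3 in SCaBER were near the limit of this depth. OCLN (chr5:69492547-69558104) had 7 to 56 counts per library. In RT112 it was lowest with siControl (1.54 and 1.83 CPM), and its replicates lay far apart with siZBED2-1 (9.10 and 3.75 CPM) and siZBED2-2 (1.93 and 7.80 CPM). With siFOXA1 it was at 4.02 and 6.44 CPM. It was called in no comparison, including siZBED2-1 on siControl in RT112 (1.92, adjusted p = 0.227), and a 95% interval from -0.18 to 3.41 for siFOXA1 on siControl in RT112 shows what could not be detected. TJP3 (chr19:3708384-3750813, with 42 bases shared with APBA3) was at 16.6 to 49.2 CPM in RT112 and at 0.736 to 5.19 CPM, or 4 to 26 counts, in SCaBER. The ranges of TJP3 with and without siFOXA1 overlapped in both lines, and no siRNA comparison called it.

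**Figure D4:**
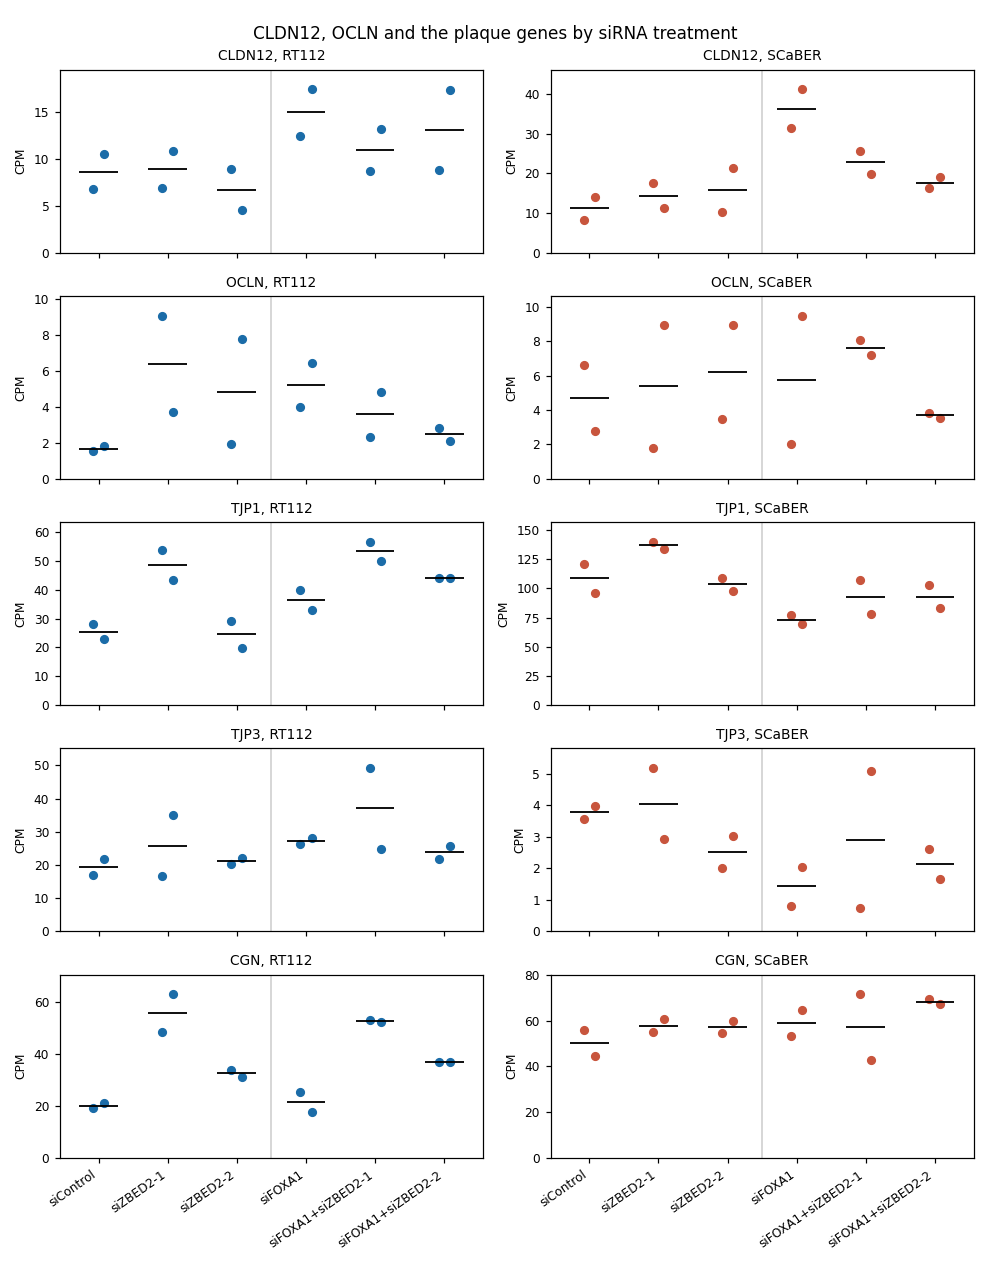
Level of CLDN12, OCLN, TJP1, TJP3 and CGN (CPM, y axis from 0) in RT112 (left) and SCaBER (right) by siRNA treatment. Points are the 2 libraries of a group and lines their mean. CGN rose above its siControl level with siZBED2-1 in RT112 (48.5 and 62.9 CPM against 19.1 and 20.9), and CLDN12 with siFOXA1 in SCaBER (31.3 and 41.2 against 8.29 and 14.1).

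The lines were then set side by side under siControl, in 1 fit of all 24 libraries. Of the members 4 differed, where 33.6% of the 14823 genes tested did. CLDN4 was lower in SCaBER than in RT112 by -1.23 (log2, SE 0.14, adjusted p = 3.29e-08, edgeR) and TJP3 by -2.37 (SE 0.53, adjusted p = 5.59e-04). TJP1 was higher in SCaBER by 2.08 (SE 0.21, adjusted p = 1.82e-09) and CGN by 1.32 (SE 0.25, adjusted p = 7.15e-05). With this scaling all 12 RT112 libraries stood above all 12 SCaBER libraries for CLDN4 (398 to 1086 against 141 to 302 CPM) and TJP3, and all SCaBER libraries stood higher for TJP1 (69.2 to 141 against 20.1 to 56.7 CPM), while CGN overlapped. CLDN1, CLDN7 and F11R did not pass the test between lines, at 0.16 (95% interval -0.14 to 0.46), -0.04 (-0.45 to 0.36) and 0.16 (-0.16 to 0.48). With 1 line of each subtype, each in its own medium, subtype, line, the FGFR3 alteration of RT112 and culture medium cannot be told apart.

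The response to siFOXA1 on siControl differed between lines for CLDN1, by 0.76 (SCaBER minus RT112, SE 0.21, adjusted p = 0.0487, edgeR), and for TJP1, as above (2.58% of all genes called). For CLDN4 the same difference was -0.70 (SE 0.20, adjusted p = 0.0592, or 0.0166 with the replicate block), while F11R (0.32, 95% interval -0.13 to 0.77) and CLDN7 (-0.19, -0.76 to 0.38) were not shown to differ. The calls of CLDN1 and TJP1 lay close to the threshold. Leaving out 1 library took away the CLDN1 call in 12 of 24 fits (adjusted p up to 0.206) and the TJP1 call in 8 of 24 (up to 0.202), as the following libraries were left out. For CLDN1 these were the 4 siControl libraries, 3 siFOXA1 libraries (not SCaBER replicate 1), RT112 siZBED2-1 replicate 1, and in SCaBER both siZBED2-1 libraries and both of siFOXA1 with siZBED2-2. For TJP1 they were 3 siControl libraries (not SCaBER replicate 2), 3 siFOXA1 libraries (not RT112 replicate 2) and both SCaBER siZBED2-1 libraries. On siZBED2, TJP1 alone was called (2.97% of all genes), a call lost without RT112 siZBED2-2 replicate 2 or replicate 2 of either SCaBER double knock-down (-0.79 to -0.74, adjusted p 0.0530 to 0.0603), and CLDN1 stood at 0.47 (SE 0.15, adjusted p = 0.0862, or 0.0488 with the replicate block). In the siZBED2 response edgeR called 0 members between lines (0.0742% of all genes), with 1 at an unadjusted p under 0.05, CGN, and DESeq2 called 0.

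Genes with the most similar pattern over the 6 group means of each line were sought among 11762 genes tested in both lines, and likeness was the lower of the 2 lines' Pearson r of log2 CPM. These group means share libraries and depth, and the values describe likeness only. ACADVL was nearest to both CLDN4 (0.967) and CLDN7 (0.948), followed by VPS25 (0.963) and ATP6V1E1 (0.959) for CLDN4 and by MCL1 (0.947) and MACC1 (0.947) for CLDN7. UBE2D3 (0.996), KCTD10 (0.990) and SARS (0.986) were nearest to F11R. TAB3 (0.966), RBM41 (0.946) and COL17A1 (0.925) were nearest to CLDN1, and ATF3 (0.976), ELF1 (0.956) and MT-ND1 (0.954) to CLDN12. GSTK1 (0.956), BCAS4 (0.951) and KRTCAP3 (0.926) were nearest to TJP1, and STUB1 (0.957), SLC25A23 (0.876) and TEAD1 (0.860) to CGN.

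Other genes of the junctional complex were counted for the siFOXA1 comparison on siControl. Over all genes tested 11.3% were called higher and 11.9% lower in RT112, and 8.71% and 9.12% in SCaBER. Of 18 other claudins only 6 passed the filter on low counts in each line. None of those was called in RT112, and CLDN11 was lower in SCaBER by -1.99 (SE 0.51, adjusted p = 0.00479, edgeR). Of 33 other tight junction genes 6 were higher and 3 lower among 29 tested in RT112, and 5 higher and 1 lower among 26 tested in SCaBER. PARD6B, a subunit of the polarity complex, was higher by 1.78 (SE 0.17, adjusted p = 4.82e-08) in RT112 and by 1.26 (SE 0.22, adjusted p = 7.55e-05) in SCaBER. AMOTL2, MPP5 and LSR, the last a protein of tricellular contacts, were also higher in both lines. YBX3, a transcription factor that binds ZO-1, was lower with siFOXA1 by -0.62 and -0.71 (adjusted p = 0.0101 and 7.55e-05, edgeR). For the mean of both ZBED2 siRNAs on siControl it was higher by 0.78 and 1.00 (adjusted p = 0.0043 and 7.98e-07). PARD6B was the other one called for that mean in both lines, higher by 0.69 and 0.95 (adjusted p = 0.0131 and 0.00534). Over all genes tested that mean called 2.37% in RT112 and 1.82% in SCaBER. With siZBED2-2 alone 0 genes of this list were called in RT112 (0.166% of all genes) and 1 in SCaBER (0.625%).

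Of 11 adherens junction genes 7 were higher and 1 lower with siFOXA1 in RT112, and 1 and 1 in SCaBER. The shares of all genes given for the other tight junction genes apply to this list and those below. E-cadherin (CDH1) was higher by 0.98 (SE 0.15, adjusted p = 4.44e-05, edgeR) in RT112 and stood at 0.29 (SE 0.12, adjusted p = 0.1004) in SCaBER, while NECTIN1 was lower in both (-1.14 and -0.73, adjusted p = 4.44e-06 and 0.0166). Of the desmosome genes 2 were higher and 3 lower among 10 tested in RT112, and 1 and 1 among 11 in SCaBER. The desmosomal cadherin DSC2 was higher in both lines (1.13 and 1.04, adjusted p = 0.00416 and 1.30e-05), and desmoplakin (DSP) was lower in RT112 (-1.23, adjusted p = 5.30e-05). Among 17 transcription factors known to act on junction genes, 2 were higher and 2 lower of 11 tested in RT112, and 0 higher and 3 lower of 14 in SCaBER. Only the 2 lower ones of RT112 are named below, and the 2 higher ones are given as a count. KLF5 was lower in both, with log2 fold changes of -1.34 (SE 0.13, adjusted p = 7.51e-08) for RT112 and -1.28 (SE 0.17, adjusted p = 1.20e-06) for SCaBER, and the Snail family repressor SNAI2 was lower in RT112 (-1.26, SE 0.27, adjusted p = 0.00108).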

How the data were processed

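Per the labels and the settings deposited with the tables, RNA of 24 cultures was sequenced from 3′ mRNA-Seq libraries (Lexogen FWD), reads were trimmed with TrimGalore 0.6.2, aligned single-end with STAR 2.6.1a to hg38 and counted by STAR on GENCODE release 29. The methods of the study name hg19 instead, and the deposited settings were followed. No unique molecular identifiers are stated. The authors deposited raw counts (whole reads per gene) and TPM values, whose length scaling does not suit 3′ reads and which served only in an alternative. Totals of 4425404 to 6119210 counts per library limit genes of few counts. Floors cover counting error only, whereas 95% intervals come from the SE of the fitted contrast and include the spread between replicates.

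In R 4.3.3, edgeR 4.0.16 (TMM, filterByExpr with a minimum count of 10 and total of 15, quasi-likelihood tests) was fitted to the 12 libraries of each line by group (13264 genes in RT112, 13129 in SCaBER) and to all 24 for line differences (14823 genes). Contrasts were adjusted by Benjamini-Hochberg over all genes, with a threshold of 0.05. SE values are Wald errors of the contrast. The fits were tested on simulated counts. Alternatives were RLE factors, library size alone, no filter, at least 10 CPM in 2 libraries, DESeq2 1.42.0, limma 3.58.1 on log2(TPM + 1), a replicate block, only the groups compared, each library left out, and, added after the data were seen, no mitochondrial transcripts.

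The labels tie the replicate number to an experiment batch, which pairs samples. Deviations of same-numbered libraries correlated by 0.04 (RT112) and 0.0328 (SCaBER) on average, with 0 of 15 group pairs over 0.1 in either line. The replicate block still changed the number of genes called, from 81 to 212 for the interaction in RT112 and from 301 to 508 in SCaBER. For the line difference in siControl level that number fell from 4981 to 4612. Replicates differed by more than sampling noise. The 30 called differences between treatments of a line had the same direction in both batches, which describes the libraries the calls were made on.

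All members are named in each main comparison. Of each other gene list, up to 5 genes with the smallest p among those called on siControl may be named, and for each member called within a line the 3 genes most like it. Members and lists were chosen with earlier results of these data known. Promoter windows and gene positions came from RefSeq on GRCh38.p14.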

Additional observations from a re-analysis of the deposited data

Results flagged for a closer look

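A test of the difference between groups passed for 6 values. The effect of siZBED2-1 on CLDN1 was smaller with siFOXA1 than with siControl, by -1.22 (log2) in RT112 (359 and 378 against 109 and 123 CPM on siControl, 153 and 170 against 109 and 129 on siFOXA1) and by -1.50 in SCaBER. Over both ZBED2 siRNAs the CLDN1 interaction was -1.09 in SCaBER. The siFOXA1 response on siControl was larger in SCaBER than in RT112 for CLDN1, by 0.76, and lower for TJP1, by -1.09. On siZBED2 the TJP1 response was lower in SCaBER by -0.86. Groups of 2 libraries were too small for a search for single outlying libraries.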

How the results depend on the processing

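All 40 called member results kept their direction under every alternative run for them, and 19 kept their call under every one. Of 909 alternative values of called results 82 lost the call, and of 4273 values of uncalled results 57 gained one and 200 changed sign while never called. The counts of members called moved by over 1.5 times as follows, and the cause was not tested. The interaction in RT112, with 0 members called, held 1 (CLDN1, -0.82 to -0.80) with RLE factors, no filter, at least 10 CPM in 2 libraries, DESeq2, the replicate block and without mitochondrial transcripts. With limma on TPM the counts were 0 for the interaction in SCaBER, 0 for the line difference in the siFOXA1 response, 1 and 2 for siFOXA1 on siControl and on siZBED2 in RT112, and 0 for siZBED2 on siControl and on siFOXA1 there. On that scale 19 of the 40 called results lost the call (adjusted p 0.0530 to 0.583), among them CLDN1 and CGN for siZBED2 on siControl in RT112 (0.125 and 0.193) and CLDN4 and CLDN7 for siFOXA1 in SCaBER. The median of all genes in RT112 was -0.26 and -0.22 for those siFOXA1 comparisons, with 18.3% and 14.2% of called genes higher against 48.6% and 49.3% with TMM, and in SCaBER 31.2% against 48.8% on siControl. With library size alone 35.2% were higher for siFOXA1 on siZBED2 in RT112. The line difference in the siFOXA1 response held 1 member called with RLE factors and with library size alone. DESeq2 and the replicate block gave 1 (F11R) for siZBED2 on siFOXA1 in SCaBER, and 1 (CLDN1) for siZBED2-2 on siControl there, as did no filter.

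With 1 library left out, members called ranged from 0 to 1 for the interaction in RT112, 1 to 2 in SCaBER, 0 to 3 for the line difference in the siFOXA1 response, 2 to 3 and 3 to 6 for siFOXA1 on siControl in RT112 and SCaBER, and 3 to 4 and 2 to 5 for siFOXA1 on siZBED2. They ranged from 1 to 2 for siZBED2 on siControl in RT112, 0 to 1 for siZBED2 on siFOXA1 in either line, 2 to 3 for siZBED2-1 in RT112 and 0 to 1 for siZBED2-2 in SCaBER. The other counts did not move. A group left with 1 library is assumed to vary like the others. The replicate block moved 1 further call of a member, CLDN4 between the ZBED2 siRNAs in SCaBER (-0.42, adjusted p = 0.0337), beyond those given beside their results. Depth limits OCLN, and TJP3 in SCaBER, most.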
